A study of Mus musculus with 2 samples.

Results

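The Frizzled receptor family of the mouse, the genes *Fzd1* to *Fzd10*, was measured in gastrulating *Dullard*+/- and *Dullard*-/- embryos. The members were all genes carrying a Frizzled symbol, taken from the RefSeq accession of each probe, and no single member was chosen by its measured value. The family and the 1.5-fold threshold used below were, however, chosen with earlier results of these data known. All 10 were represented, by 13 probes, among the 14771 genes with a probe well above background on both arrays. Each array held the Cy3-labelled RNA of 1 whole embryo at embryonic day 7.5 (E7.5), labelled as C57BL/6. The *Dullard*+/- embryo, called the heterozygote here, carried 1 targeted *Dullard* allele, and the *Dullard*-/- embryo, the homozygote, carried targeted alleles alone. No wild-type embryo was measured, so the reference also lacked 1 functional copy. The study's methods describe 2 targeted alleles under the single name *Dullard*-/-, and the sources used here do not say which of them these embryos carried.

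Frizzled proteins are the cell-surface receptors for secreted WNT proteins. Each has a cysteine-rich extracellular domain that binds the lipid-modified WNT and a membrane-spanning part that recruits Dishevelled on the cytoplasmic side. Together with the co-receptors LRP5 and LRP6 they stabilise beta-catenin, and with other partners, such as the CELSR and VANGL proteins, they orient cells within a sheet, a process called planar polarity. In the mouse gastrula WNT signalling is needed for the primitive streak and the mesoderm, whereas secreted WNT antagonists of the anterior visceral endoderm protect the prospective head from it. By sequence the receptors group as *Fzd1*, *Fzd2* and *Fzd7*, as *Fzd5* and *Fzd8*, as *Fzd3* and *Fzd6*, and as *Fzd4*, *Fzd9* and *Fzd10*.

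The promoter of *Fzd8*, the highest member, had no match in the RefSeq table, and no link between promoter sequence and fold change was tested. The sequences upstream of 3 members are shown, *Fzd5* and *Fzd7* from the upper end of the fold changes and *Fzd9* from the lower end. Each runs 5′ to 3′ on the strand of the gene over the 250 bases before the annotated start, from RefSeq on build GRCm38.p6. Capitals mark matches, on either strand, to the TCF/LEF motif (CTTTGAT or CTTTGTT), the GC box (GGGCGG) and the CCAAT box (CCAAT).
Fzd5 (chr1:64737751-64738000, minus strand): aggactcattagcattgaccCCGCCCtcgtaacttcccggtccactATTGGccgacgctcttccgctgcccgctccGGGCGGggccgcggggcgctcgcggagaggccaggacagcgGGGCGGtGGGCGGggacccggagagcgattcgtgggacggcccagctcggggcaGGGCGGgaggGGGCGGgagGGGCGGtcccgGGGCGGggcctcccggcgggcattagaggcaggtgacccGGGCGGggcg
Fzd7 (chr1:59481897-59482146, plus strand): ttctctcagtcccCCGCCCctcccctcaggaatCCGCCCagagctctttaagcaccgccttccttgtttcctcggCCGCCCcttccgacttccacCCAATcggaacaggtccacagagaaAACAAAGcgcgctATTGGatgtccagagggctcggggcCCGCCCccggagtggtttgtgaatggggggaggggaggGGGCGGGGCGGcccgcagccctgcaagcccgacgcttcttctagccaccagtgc
Fzd9 (chr5:135251048-135251297, minus strand): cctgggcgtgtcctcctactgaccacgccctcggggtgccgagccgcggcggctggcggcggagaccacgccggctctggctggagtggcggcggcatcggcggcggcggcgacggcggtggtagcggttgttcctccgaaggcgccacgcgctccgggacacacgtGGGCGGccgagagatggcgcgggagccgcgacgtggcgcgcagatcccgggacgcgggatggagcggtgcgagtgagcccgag

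The *Fzd7* sequence held 1 match to the TCF/LEF motif, read as AACAAAG 130 bases upstream of the start. None of the other 5 Frizzled promoters that matched the RefSeq table (*Fzd1*, *Fzd4*, *Fzd5*, *Fzd9* and *Fzd10*) held it, and 8.06% of all 32851 promoters of the same length did. The GC box occurred 9 times upstream of *Fzd5*, 6 times upstream of *Fzd7*, where neighbouring matches can share a base, and 1 time upstream of *Fzd9*. At least 1 GC box was present in 5 of the 6 Frizzled promoters and in 32.7% of all promoters. The CCAAT box was present in 3 of the 6, at 2 places in *Fzd7* and 1 in *Fzd5*, and in 33.8% of all promoters. CpG dinucleotides numbered 42 upstream of *Fzd9*, 32 upstream of *Fzd5* and 17 upstream of *Fzd7*, against a median of 6 over all promoters. These matches describe the letters of the windows and do not show that a factor binds there.

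The arrays were first checked for the targeted gene. The *Dullard* probe, annotated as *Ctdnep1*, the gene's current symbol, gave a signal of 672 in the heterozygote and 144 in the homozygote, 4.31-fold lower. The probe still counted as well above background in the homozygote. By the study's account, 1 targeted allele replaces all exons of the gene, which would take in the probe. The other allele replaces part of them, and the probe's place relative to that part is unknown. The study detected no *Dullard* RNA in *Dullard*-/- embryos at E7.5 by in situ hybridization or Q-PCR. The source of the remaining array signal was not tested. The 75th percentile of the signal over all spots that are not controls was 286 for the heterozygote and 264 for the homozygote. All fold changes are *Dullard*-/- over *Dullard*+/- after each signal was divided by that percentile, which raised the *Dullard*-/- values by a factor of 1.08, or 0.11 on the log2 scale. The median log2 fold change over all genes was then 0.01, with quartiles of -0.14 and 0.16. With 1 embryo per genotype there is no spread between embryos and no test of the genotype. The error given after ± is the spot error, the SD between repeated spots of probes with a similar signal, shrunk by averaging where a gene had several probes. The scanner error is carried over from the error that the scanner software gives each spot. Neither holds the difference between embryos.

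Members of the family went in opposite directions. Of the 10 receptors, *Fzd5*, *Fzd7* and *Fzd8* were at least 1.5-fold higher in the homozygote, none was 1.5-fold lower and the other 7 lay within 1.5-fold. Among all 14771 genes, 3.92% passed 1.5-fold upward and 3.37% passed it downward. No Frizzled gene passed 2-fold in either direction, which 0.894% of all genes did upward and 0.765% downward. The log2 fold change was above 0 for 5 receptors and below 0 for 5, and their median was 0.02. Their SD was 0.48, against 0.33 over all genes. Because dim genes scatter more, the share past 1.5-fold depends on the signal. Genes were therefore ranked by signal into equal bins, bin 1 being the dimmest and bin 4 the brightest. Bin 2 held 7 Frizzled genes, with *Fzd5* and *Fzd8* among them, bin 3 held *Fzd2* and *Fzd7*, and bin 1 held *Fzd9*. Of all genes, 4.79% passed 1.5-fold upward in bin 2 and 1.87% in bin 3, and 9.29% passed it downward in bin 1.

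**Figure D1:**
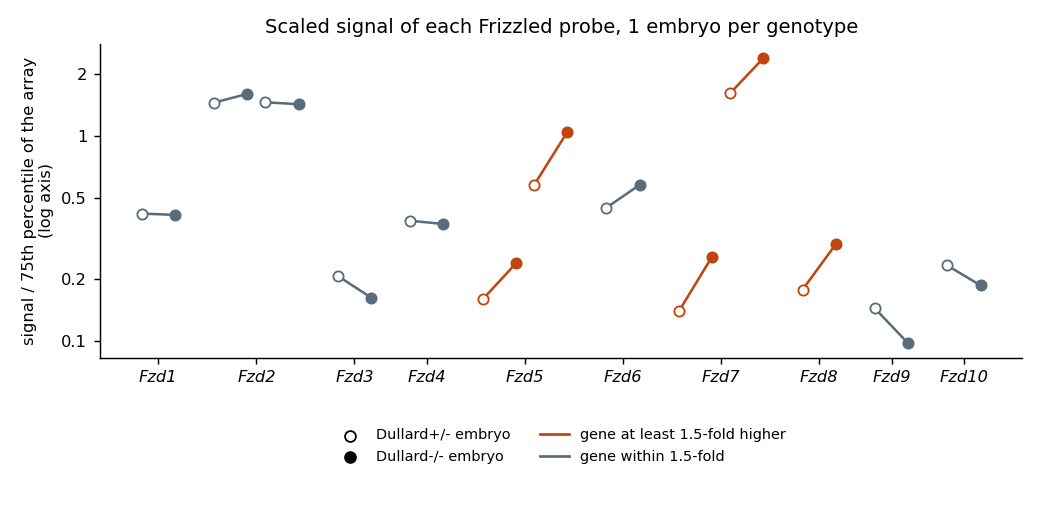
Signal of each of the 13 Frizzled probes divided by the 75th percentile of its array (log axis), with the *Dullard*+/- embryo as open and the *Dullard*-/- embryo as filled circles, 1 embryo each. A line joins the 2 values of 1 probe, and the lines of *Fzd5*, *Fzd7* and *Fzd8* rise while those of *Fzd3*, *Fzd9* and *Fzd10* fall.

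*Fzd5* and *Fzd8*, which form a subfamily of their own, were both at the upper end. Both are known from the mouse as receptors that activate the beta-catenin branch, and both have been described in the anterior visceral endoderm and its neighbourhood at gastrulation. *Fzd8*, on chromosome 18, was read by 1 probe with a signal of 50.9 in the heterozygote and 78.3 in the homozygote. This was 1.66-fold higher after scaling, a log2 fold change of 0.73 ± 0.11, with a scanner error of 0.21. *Fzd5*, on chromosome 1, was read by 2 probes. The brighter gave signals of 164 and 276 in the heterozygote and the homozygote, and the dimmer 45.7 and 63.3. Their log2 fold changes were 0.86 and 0.58, and the second, a fold of 1.497, lay just under the 1.5-fold line. Averaged, *Fzd5* was 1.65-fold higher, at 0.72 ± 0.07. The difference between *Fzd8* and *Fzd5* was 0.01 ± 0.13, within the spot error.

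*Fzd7*, also on chromosome 1, is the member best known from gastrulation, as a receptor of the epiblast and the mesoderm that acts in both branches. Its brighter probe gave 462 in the heterozygote and 633 in the homozygote, a log2 fold change of 0.57. Its dimmer probe gave 39.9 and 68.1, a log2 fold change of 0.88. Both probes were higher in the homozygote and their mean was 0.73 ± 0.07, or 1.65-fold. The probes differed by 0.32, which was above their spot error of 0.13 and close to the pooled SD of 0.29 between probes of 1 gene over 3747 genes. The brighter probe alone, at 1.48-fold, would not have passed 1.5-fold.

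The relatives of *Fzd7* differed from it. *Fzd2*, on chromosome 11, a receptor for WNT5A among others, was read by 2 probes with signals of 416 and 418 in the heterozygote and 424 and 378 in the homozygote. The log2 fold changes were 0.14 and -0.03, so the probes lay on either side of 0, and the mean was 0.06 ± 0.04. *Fzd1*, on chromosome 5, gave 119.7 and 109.1, a log2 fold change of -0.02 ± 0.09. *Fzd7* was above *Fzd1* by 0.75 ± 0.11 and above *Fzd2* by 0.67 ± 0.08 on the log2 scale, both beyond the spot and the scanner error. *Fzd2* and *Fzd1* differed from each other by 0.08 ± 0.10.

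*Fzd6* and *Fzd3* act mainly in planar polarity, where they orient hairs and neural tissue in the mouse. Here they lay on opposite sides of 0. *Fzd6*, on chromosome 15, gave 128 in the heterozygote and 153 in the homozygote, a log2 fold change of 0.37 ± 0.08 or 1.29-fold. *Fzd3*, on chromosome 14, gave 59.4 and 43.1, a log2 fold change of -0.35 ± 0.13 or 1.27-fold lower. Neither passed 1.5-fold, and the difference between them, 0.72 ± 0.15, was beyond both errors, with a scanner error of 0.30.

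The last subfamily held the lowest member. *Fzd9*, on chromosome 5, a receptor known from bone and the developing brain, was the dimmest member. Its signal was 41.3 in the heterozygote and 25.8 in the homozygote, against 7.27 for the dimmest spot of that array that counted as well above background. Its log2 fold change was -0.56 ± 0.18, or 1.48-fold lower, just inside the 1.5-fold line. *Fzd10*, also on chromosome 5, is known in the mouse from the primitive streak and gave 66.8 and 49.4, a log2 fold change of -0.32 ± 0.12. *Fzd4*, on chromosome 7, is the receptor for Norrin and acts in retinal vessels. It gave 110.4 and 98.4, a log2 fold change of -0.05 ± 0.09. *Fzd4* was above *Fzd9* by 0.51 ± 0.20, beyond both errors, whereas *Fzd4* and *Fzd10* differed by 0.27 ± 0.15 and *Fzd10* and *Fzd9* by 0.24 ± 0.22, which was within the scanner errors of 0.30 and 0.32.

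**Figure D2:**
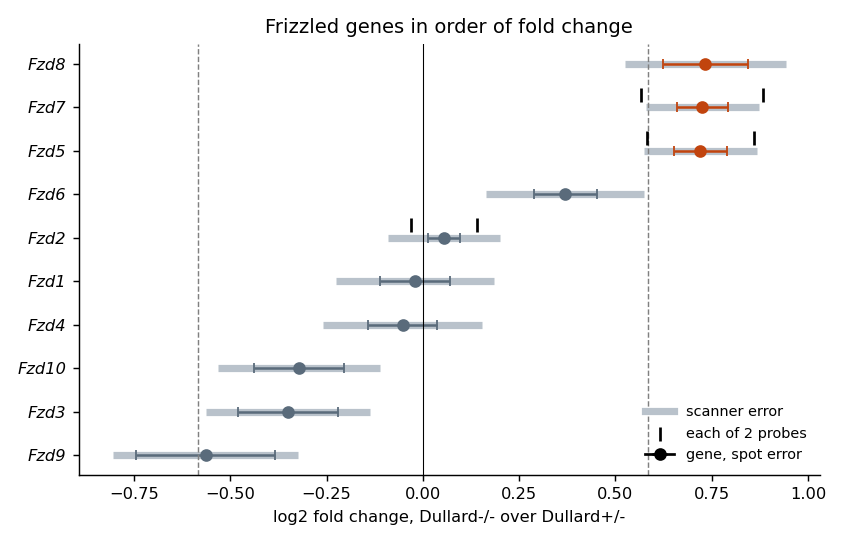
Log2 fold change (*Dullard*-/- over *Dullard*+/-) of the 10 Frizzled genes in descending order, with the spot error as thin bars, the scanner error as grey bars, and both probes as ticks where a gene had 2; dashed lines mark 1.5-fold. The genes run from *Fzd8* at 0.73 to *Fzd9* at -0.56, and the bars do not include the difference between embryos.

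In descending order the log2 fold changes ran *Fzd8*, *Fzd7*, *Fzd5*, *Fzd6*, *Fzd2*, *Fzd1*, *Fzd4*, *Fzd10*, *Fzd3* and *Fzd9*. Most neighbours in this order could not be told apart, since 3 of the 9 neighbouring pairs differed by more than their spot error and 2 by more than their scanner error. The steps beyond both errors were from *Fzd5* down to *Fzd6*, 0.35, and from *Fzd6* down to *Fzd2*, 0.31. Both were close to the 0.32 by which the 2 probes of *Fzd7* differed and to the pooled SD of 0.29 between probes of 1 gene. *Fzd6* was read by 1 probe, so its place between the others is uncertain. The step from *Fzd4* down to *Fzd10*, 0.27, was beyond the spot error alone. The highest and the lowest receptor, *Fzd8* and *Fzd9*, were 1.30 ± 0.21 apart. Among all 14771 genes ranked from the highest, *Fzd8* stood at 345, *Fzd7* at 355 and *Fzd5* at 364. *Fzd6* stood at 1368 and *Fzd9* at 14239. Of all genes, 97.5% lay below *Fzd5* and 3.60% below *Fzd9*.

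**Figure D3:**
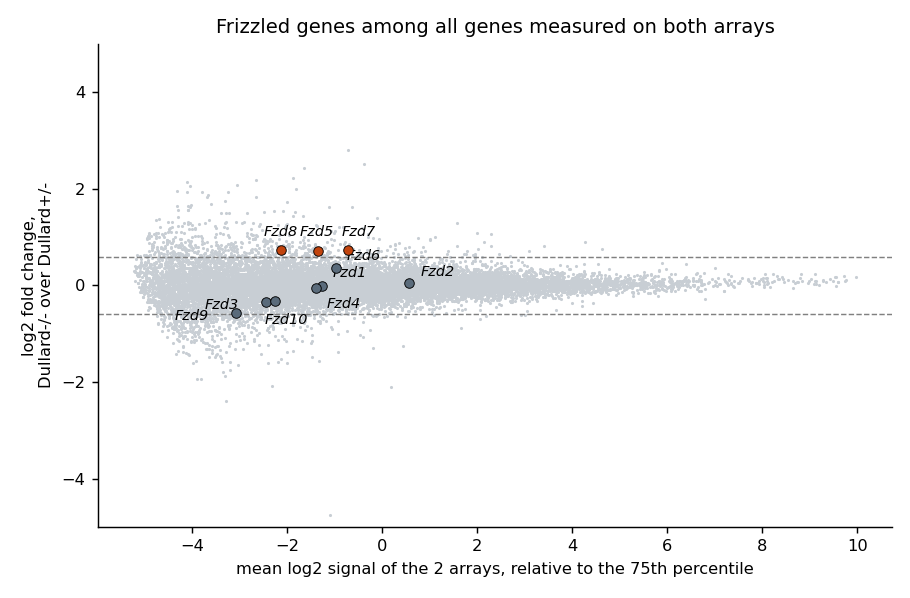
Log2 fold change (*Dullard*-/- over *Dullard*+/-) against the mean log2 signal of both arrays relative to the 75th percentile, for all 14771 genes (grey) and the 10 Frizzled genes (coloured and named); dashed lines mark 1.5-fold. The grey cloud widens toward dim genes, and *Fzd5*, *Fzd7* and *Fzd8* lie above the upper line at 0.72, 0.73 and 0.73.

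The calls depended on the handling of background. When the background was modelled with normexp and an offset of 50, *Fzd5* was at 0.51, *Fzd7* at 0.48 and *Fzd8* at 0.48, and no Frizzled gene was 1.5-fold higher. Median signals of 38.6 and 34.8 on the arrays lie below that offset, and over all genes 94 instead of 579 were then at least 1.5-fold higher and 33 instead of 498 lower. Without scaling the split was 388 higher and 782 lower, *Fzd5*, *Fzd7* and *Fzd8* still passed 1.5-fold, and *Fzd9*, at -0.68, became 1.5-fold lower.

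**Figure D4:**
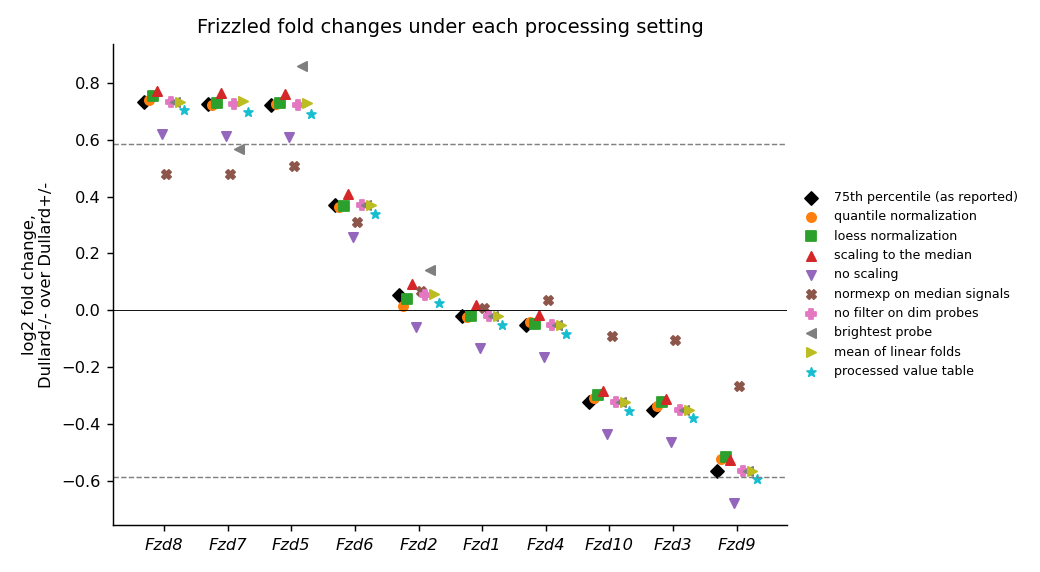
Log2 fold change (*Dullard*-/- over *Dullard*+/-) of each Frizzled gene as reported (black diamonds) and under the 9 other processing settings; dashed lines mark 1.5-fold. *Fzd5*, *Fzd7* and *Fzd8* stay above 0 in every setting shown, below the upper line with normexp and, for *Fzd7*, with the brightest probe, and *Fzd9* stays below 0.

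*Smo* encodes Smoothened, the Hedgehog transducer whose membrane part is related to the Frizzled proteins and which binds no WNT. Its 2 probes gave log2 fold changes of 0.13 and -0.18, with a mean of -0.02 ± 0.04. Their signals in the heterozygote were far apart, 41861 and 303. The fold changes differed by 0.31, beyond their spot error of 0.08 and scanner error of 0.29, so the mean is less certain than its error shows.

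The other genes of the pathway were grouped by role. Beside the counts of each list, 3.92% of all genes passed 1.5-fold upward and 3.37% downward, and in the dimmest bin 8.31% and 9.29% did. Of the 19 WNT ligands 16 were measured on both arrays, 2 of them at least 1.5-fold higher and 1 lower, with a median of 0.06. The median was -0.05 without scaling. *Wnt3*, which is needed for the primitive streak in the mouse, gave 326 in the heterozygote and 484 in the homozygote, a log2 fold change of 0.68 ± 0.06. *Wnt10b*, a beta-catenin ligand, gave 47.6 and 77.1, or 0.81 ± 0.12. *Wnt3a*, a ligand of the streak and tail bud, gave 23.0 and 11.1, or -0.94 ± 0.26. *Wnt10a* was well above background in the heterozygote alone and lay lower by a factor of 1.63 or more in the homozygote, a bound taken against the dimmest spot of that array that counted as well above background. *Wnt2* and *Wnt9a* were not well above background on either array.

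Of the 11 co-receptors and other WNT receptors 10 were measured, with none at least 1.5-fold higher, 1 lower and a median of -0.04 (0.00 with scaling to the array median). *Tspan12*, a tetraspanin that works with *Fzd4* in Norrin signalling, gave 328 in the heterozygote and 197 in the homozygote, a log2 fold change of -0.62 ± 0.07. Its partners in that pathway were at -0.05 for *Fzd4* and -0.26 ± 0.10 for *Ndp*, which encodes Norrin. *Reck*, which presents WNT7 ligands to Frizzled, was at 0.49 ± 0.11, but its brighter probe was at 0.16 and its dimmer probe at 0.82. The co-receptors *Lrp5* and *Lrp6* were at 0.07 ± 0.05 and -0.03 ± 0.04, but the 2 probes of *Lrp6* lay on either side of 0, at 0.19 and -0.25. *Musk*, a receptor kinase with a Frizzled-like cysteine-rich domain, gave 84.9 in the heterozygote and was not well above background in the homozygote, at least 10.8-fold lower. It rests on 1 probe and was named after its value was seen.

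The third group was drawn up around proteins that act on Frizzled itself. ZNRF3 and RNF43 are ubiquitin ligases that remove Frizzled from the cell surface, and R-spondins and LGR4 to LGR6 counter them. The SHISA genes were listed as a family, of which only some members are known to retain Frizzled in the endoplasmic reticulum. Of the 14 genes 10 were measured and none passed 1.5-fold, with a median of 0.13. *Znrf3* was at 0.47 ± 0.14, *Shisa2* at 0.47 ± 0.14 and *Shisa4* at -0.47 ± 0.06. *Rnf43*, named after its value was seen, was well above background in the homozygote alone, with a signal of 17.8 against 3.36, at least 3.11-fold higher. *Rspo2*, *Rspo4* and *Shisa3* were not well above background on either array.

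Of the 18 secreted and membrane antagonists 13 were measured, 3 of them at least 1.5-fold higher and 1 lower, with a median of 0.00 that was -0.11 without scaling. *Sfrp1* and *Sfrp5* encode secreted proteins that carry a Frizzled-type cysteine-rich domain and bind WNT. *Sfrp5* gave 437 in the heterozygote and 815 in the homozygote, a log2 fold change of 1.01 ± 0.06. *Sfrp1* gave 103 and 147, or 0.62 ± 0.08. *Sfrp2* and *Frzb*, from the same family of soluble Frizzled-like proteins, were at 0.00 ± 0.05 and -0.03 ± 0.09. *Cer1*, an antagonist of Nodal and BMP that was put in this list, was at 0.75 ± 0.04, and *Apcdd1*, a membrane inhibitor, at -0.69 ± 0.23. Whether mouse *Cer1* acts on WNT was not tested, so its rise is not that of an established WNT antagonist.

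Downstream of the receptors, no measured transducer or planar polarity partner passed 1.5-fold. All 15 intracellular transducers were measured, with a median of -0.02 (0.02 with scaling to the array median). *Ctnnb1*, encoding beta-catenin, was at 0.44 ± 0.04, *Bcl9*, its co-activator, at -0.44 ± 0.07 and the transcription factor gene *Tcf7l2* at -0.43 ± 0.09. For *Tcf7l2* the value rests on the dimmest of 3 probes, at -1.39, with the others at 0.06 and 0.03. Of the 12 planar polarity partners 10 were measured and the median was 0.12. Among these, the atypical cadherin genes *Celsr1* and *Celsr3* were at 0.40 ± 0.07 and -0.50 ± 0.08, and *Prickle1* at -0.40 ± 0.05.

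Of the 21 WNT response genes 19 were measured, 1 of them at least 1.5-fold higher and 4 lower, all 4 also past 2-fold, with a median of -0.10. *Cdx4*, a caudal gene named after its value was seen, was well above background in the heterozygote alone, with 18.6 against 5.31, at least 2.37-fold lower. *Msgn1*, a factor of presomitic mesoderm, gave 55.4 in the heterozygote and 13.9 in the homozygote, a log2 fold change of -1.88 ± 0.20. The caudal gene *Cdx1* was at -1.32 ± 0.19, and *T*, which encodes Brachyury, at -1.19 ± 0.09. *Nkx1-2*, a gene of the posterior epiblast, was at -1.01 ± 0.15 over 3 probes that ranged from -2.26 to -0.37. *Nkd2*, a feedback inhibitor that binds Dishevelled, was at 0.94 ± 0.14, but its brighter probe, with signals of 1325 and 1247, was at 0.03 and its dimmer probe, with 7.92 and 26.4, at 1.85. *Axin2*, a general reporter of the beta-catenin branch, was named here for that role and was at -0.12 ± 0.05. Its 2 probes lay on either side of 0, the brighter at 0.09 and the dimmer at -0.33. Several lists share genes, so their counts are not independent of each other. With normexp the counts past 1.5-fold in either direction were 0 ligands, 0 co-receptors, 2 antagonists and 1 response gene. Without scaling 1 ligand in place of 2 passed upward, 2 antagonists passed in each direction, 5 response genes passed downward, and 1 gene each of the turnover and planar polarity lists passed downward. With the brightest probe of each gene no response gene passed upward and 5 passed downward.

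**Figure D5:**
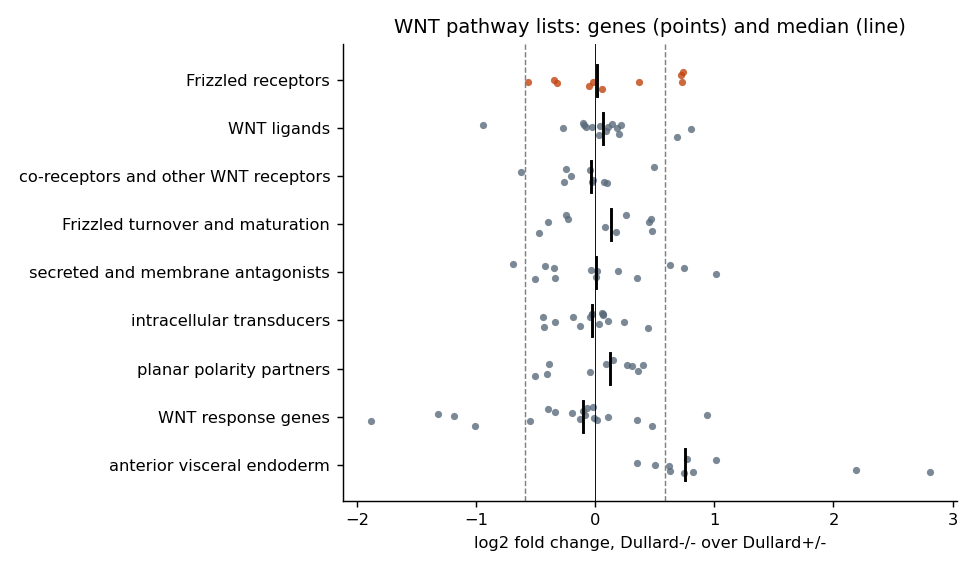
Log2 fold change (*Dullard*-/- over *Dullard*+/-) of the measured genes of each WNT pathway list and of the anterior visceral endoderm markers, with 1 point per gene, the median as a black line and dashed lines at 1.5-fold. The Frizzled genes spread from -0.56 to 0.73 around a median of 0.02, and all 10 anterior visceral endoderm markers lie above 0.

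The genes of the pathway lists nearest to *Fzd8* in log2 fold change, among 89 measured over the 2 arrays, were *Cer1* at 0.75, *Wnt3* at 0.68 and *Wnt10b* at 0.81. Those nearest to *Fzd9* were *Sp8* at -0.55, *Tspan12* at -0.62 and *Celsr3* at -0.50. Likeness here means the absolute difference of 1 fold change between 1 pair of embryos. For *Sp8* it also rests on probes that disagreed, at -0.10 and -0.99.

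Some markers of particular tissues also differed between the embryos. Their counts stand beside the 3.92% of all genes that passed 1.5-fold upward and the 3.37% that passed it downward. In whole embryos, a change in the number of cells of a type and a change in RNA per cell cannot be told apart. All 10 anterior visceral endoderm markers were above 0, with log2 fold changes from 0.35 to 2.81 and 8 of them at least 1.5-fold higher. Their summed signal, in units of the 75th percentile, was 36.0 in the heterozygote and 61.3 in the homozygote. Most of that sum came from *Cer1*, with signals before scaling of 5493 and 8523, and *Otx2*, with 2277 and 3721. Of the 10 markers, *Cer1*, *Dkk1*, *Sfrp1* and *Sfrp5* are also in the antagonist list. The study names *Gsc*, at 2.81, and *Lefty1*, at 2.19, as anterior mesoderm markers and describes *Lhx1* in anterior mesendoderm and nascent mesoderm. The list is therefore not particular to the anterior visceral endoderm. General visceral endoderm markers summed to 124 and 120.2, with none of 10 past 1.5-fold. Of 9 measured anterior neural plate markers 2 were at least 1.5-fold higher, *Hesx1* and *Otx2*, which are also among the anterior visceral endoderm markers. None of the 7 others passed 1.5-fold, and the summed signal was 18.0 and 27.4 with the shared markers and 9.90 and 13.1 without them. Most of the sum without them came from *Pou3f1*, with signals before scaling of 1719 and 2291. Of 14 streak and nascent mesoderm markers 6 were at least 1.5-fold higher and 5 lower. Of 9 measured blood and endothelium markers 3 were at least 1.5-fold higher and 2 lower, or 2 higher and 2 lower with the brightest probe. Their log2 fold changes ran from -2.08 ± 0.12 for *Hbb-bh1*, an embryonic globin, to 1.10 ± 0.27 for *Cdh5*, which encodes the endothelial cadherin. *Cdh5* was dim, with signals of 10.4 in the heterozygote and 20.7 in the homozygote. Of 10 measured markers of extraembryonic ectoderm and trophoblast 2 were higher and 1 lower by this threshold, and of 7 measured markers of definitive endoderm and axial mesendoderm 1 was higher. Of 8 epiblast markers, 1 was at least 1.5-fold higher and none lower. Of 10 markers of maternal decidua and adult blood 5 were measured and 2, the globin genes *Hba-a1* at -0.95 and *Hba-a2* at -1.38, were at least 1.5-fold lower in the homozygote. Whether their RNA came from embryonic or maternal blood was not tested. The adult globin genes *Hbb-bs* and *Hbb-bt* were well above background in the heterozygote alone, at least 2.93-fold and 7.19-fold lower in the homozygote. The summed signal of the 5 measured markers was 4.19 and 3.24, and the decidual markers *Prl8a2* and *Dcn* were not well above background on either array. With normexp the counts were 6 higher for the anterior visceral endoderm, 1 higher for the anterior neural plate, 2 higher and 3 lower for the streak and nascent mesoderm, 1 higher and 2 lower for blood and endothelium, and 1 higher and 0 lower for the trophoblast list. Without scaling 1 anterior neural plate marker was higher, and no marker of definitive endoderm passed with normexp or without scaling. The part of any of these tissues in the values of *Fzd5*, *Fzd7*, *Fzd8* or the lower members was not tested.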

How the data were processed

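Total RNA from a *Dullard*+/- and from a *Dullard*-/- embryo, both at E7.5, was labelled with Cy3 and hybridised to 1 Agilent whole mouse genome array each. The labels and the study's methods name different amplification kits and RNA amounts. The authors deposited spot intensities made with Agilent Feature Extraction 10.10, which are background-subtracted and on a linear scale, and a table of processed intensities, which was set against the scanner signal, differed from it by a constant per array (4.91 and 5.20) and had medians of 189 and 181. The sources used here do not say how that constant was chosen.

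Signals were divided by the 75th percentile over 43020 spots that are not controls and converted to log2. Spots marked as outliers (206) were removed. Saturation was absent. Spots of a probe and then probes of a gene were averaged over probes well above background on both arrays (31242 spots on the *Dullard*+/- and 29310 on the *Dullard*-/- array). Probes were named through RefSeq accessions, which left 12785 spots unnamed. Spot error was the SD over the 40 nearest in signal of 275 replicated probes. With 1 array per genotype no test was run, and a gene was called past 1.5-fold or 2-fold. The number of arrays limits the precision. Where a gene was dim on 1 array its bound was set against the higher of its own signal and the lowest signal well above background there. Promoter sequences came from RefSeq (GRCm38.p6), and the 50 bases after the start were left out. The steps were run on simulated data with planted changes as a check of the code. The noise there was smaller than the scanner error of these arrays, so the check says nothing about calls near 1.5-fold. The normalisation alternatives used limma 3.58.1 in R 4.3.3, and the rest pandas 2.3.3 and numpy 2.4.6 in Python 3.11.15.

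Named genes were all Frizzled genes, *Smo*, *Dullard*, up to 3 members of each pathway list with the largest absolute log2 fold change, those past 1.5-fold, and the 3 pathway genes nearest to the highest and to the lowest Frizzled gene. Genes named for their role or in pairs with these, and those said to be named after their values were seen, fall outside the rule. The family, the lists and the 1.5-fold threshold were chosen with earlier results of these data known. The alternatives were quantile, loess (span 0.3), median and no scaling, normexp on the median signals (the mean signal was not used here), dim probes kept, only the brightest probe of a gene, the mean of linear folds and the processed table.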

Additional observations from a re-analysis of the deposited data

How the results depend on the processing

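No paired analysis was possible because each genotype had 1 sample, and no replicate could be left out. Over the 9 alternatives 146 of 162 recomputed values kept their side of the 1.5-fold line and moved by less than the SD between probes (or 1.5 times for counts), and 16 did not. Many could not move. All 13 Frizzled probes were well above background, so keeping dim probes changed no Frizzled value. The 7 Frizzled genes with 1 probe were unaffected by how probes were combined. Median scaling, no scaling and the processed table shifted all genes by nearly the same amount. The count is therefore no measure of how firm the calls are. With normexp on median signals 0 Frizzled genes were at least 1.5-fold higher, and over all genes 94 were higher and 33 lower. Without scaling 1 Frizzled gene, *Fzd9*, and 782 of all genes were 1.5-fold lower. With the deposited processed values *Fzd9*, at -0.59, was the 1 Frizzled gene 1.5-fold lower. With no filter on dim probes 1215 of 20281 genes were higher and 1737 lower, and the larger number of genes tested is part of that setting. The brightest probe alone put *Fzd7* at 0.57. The log2 fold change ranged from 0.51 to 0.86 for *Fzd5*, from 0.48 to 0.76 for *Fzd7*, from 0.48 to 0.77 for *Fzd8*, from 0.26 to 0.41 for *Fzd6*, from -0.46 to -0.10 for *Fzd3*, from -0.43 to -0.09 for *Fzd10* and from -0.68 to -0.26 for *Fzd9*. Signs changed for values near 0, with *Fzd1* at 0.02 under scaling to the median and 0.01 under normexp, *Fzd2* at -0.06 without scaling and *Fzd4* at 0.04 under normexp. The Frizzled median was -0.10 without scaling. The 1 embryo per genotype limits every value, and no spread between embryos is known.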

Other observations

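The 3 other Frizzled promoters that matched the RefSeq table were those of *Fzd1*, *Fzd4* and *Fzd10*. The 250 bases upstream of *Fzd1* held 12 CpG dinucleotides and no GC box, but 1 match to the TATA box letters (TATAAA), 202 bases upstream of the start, which 12.4% of all promoters held. Those of *Fzd4* held 25 CpG dinucleotides, 7 GC boxes and 1 CCAAT box, and those of *Fzd10* held 37 CpG dinucleotides and 1 GC box.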
